A study of Homo sapiens with 12 samples.

Results

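The HOX genes were taken as every row of the deposited expression table whose symbol consists of HOX, a cluster letter from A to D and a number, which gave 39 genes of 25528 rows. The readthrough transcript HOXA10-HOXA9 is listed under its own symbol and was not counted. The genes lie in 4 clusters on different chromosomes: HOXA on chr7, HOXB on chr17:48528526-48729178, HOXC on chr12:53938765-54056030 and HOXD on chr2:176092891-176190907 (GRCh38, GENCODE v29). HOXA and HOXB genes are transcribed from the minus strand and HOXC and HOXD genes from the plus strand.

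Expression was measured by RNA-seq, with an mRNA library kit, in HT-29, an established line from a human colon adenocarcinoma whose genotype is given as APC mutant, so every group, controls included, already carries altered APC, a part of the complex that marks beta-catenin for destruction. Cells of all 4 groups were infected with lentivirus. In the open reading frame arm the virus carried GFP (the control) or CTNNB1, the gene of beta-catenin, and cells were collected 2 days after infection. In the hairpin arm it carried the control hairpin shNT1 or shAPC, which targets APC, with collection 1 day after doxycycline (2 µM) was added. Each group had 3 libraries, and the labels do not say whether these came from separate cultures, so the p-values measure the spread between libraries, which may be technical. The labels give a single hairpin name per group, so an effect of the hairpin's own sequence cannot be told apart from loss of APC.

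HOX genes encode homeodomain transcription factors whose order within a cluster follows the order in which they are used along the body axis, from anterior (low paralog numbers) to posterior (high numbers). Adult colon epithelium keeps a regional HOX pattern, and CDX factors, retinoic acid, Polycomb and Trithorax complexes are among the known regulators of the clusters. HOX proteins bind DNA together with TALE homeodomain cofactors of the PBX, MEIS and PKNOX families.

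The perturbations were checked in the same libraries. APC averaged 16.4 TPM (transcript abundance per library, corrected for length and scaled to the same total) in shNT1 and 5.99 TPM in shAPC. Mean CTNNB1 was 146 TPM with GFP and 160 TPM with CTNNB1, a log2 change of 0.13 that was not called (limma adjusted p = 0.059). These values count transcripts of the construct and of the cell's own gene together, as far as the authors' reference matched the construct, which was not analysed here. AXIN2, a feedback target of WNT signalling, averaged 39.2 TPM with GFP and 81.6 TPM with CTNNB1, and 29.9 TPM in shNT1 and 92.1 TPM in shAPC. Of 10 colon epithelium markers 7 had a mean of at least 1 TPM, EPCAM at 1589 TPM among them, while CDX2 (0.53 TPM), CDX1 (0.17 TPM) and CDH17 (0.47 TPM) did not. None of 8 fibroblast and 3 endothelial markers reached 1 TPM. Of 5 leukocyte markers LYZ and CD68 did, while PTPRC averaged 0.005 TPM and CD3E was listed at 0. Of 4 neural markers TUBB3 and NES, with 8.70 and 1.16 TPM, passed 1 TPM and were called higher in both arms. NES averaged only 0.657 TPM in GFP and 0.725 TPM in shNT1. It was tested in each arm only because its CTNNB1 or shAPC libraries raised the mean to 1 TPM. The authors' deposited tables call NES higher in both arms, but TUBB3 in neither (limma adjusted p = 0.304 and 0.0982). The summed level of the 4 was 8.97 to 9.43 TPM in GFP, 10.8 to 14.8 TPM in CTNNB1, 7.66 to 8.87 TPM in shNT1 and 10.8 to 11.9 TPM in shAPC. Other markers moved too: LGALS4 and CD68 were called lower in both arms, and KRT20 and CDH1 lower with shAPC. VIL1, KRT8, KRT18 and LYZ were called higher with CTNNB1. The part of these marker changes in the HOX results was not tested. Sequencing depth is unknown, since TPM does not keep it.

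Averaged over the 12 libraries, perturbed ones included, HT-29 expressed the whole HOXA cluster, nearly all of HOXB, the ends of HOXC and none of HOXD. With expression taken as a mean of at least 1 TPM over the 12 libraries, 25 of the 39 genes were expressed. They were 11 of 11 HOXA genes, 9 of 10 HOXB genes (all but HOXB1), 5 of 9 HOXC genes (HOXC4, HOXC5, HOXC6, HOXC8 and HOXC13) and 0 of 9 HOXD genes. By position, 5 of 8 anterior genes (paralog groups 1 to 3), 13 of 15 central genes (groups 4 to 8) and 7 of 16 posterior genes (groups 9 to 13) were expressed. The genes nearest the limit were HOXB2 just above it, with a mean of 1.01 TPM, and HOXC9 just below it, with 0.752 TPM. HOXB2 was below 1 TPM in both controls, at 0.869 TPM in GFP and 0.734 TPM in shNT1. HOXB13 and HOXC13 were below it in GFP, at 0.911 and 0.925 TPM, but not in shNT1.

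**Figure D1:**
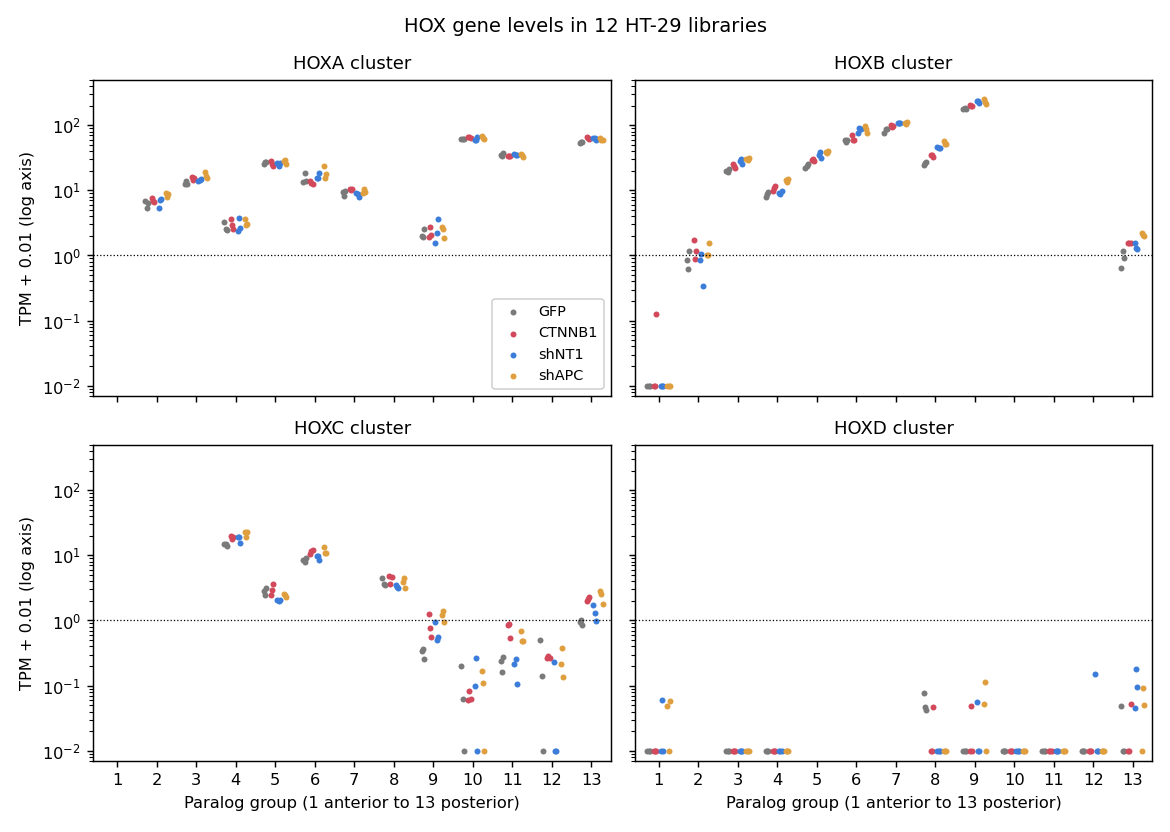
TPM + 0.01 (log axis) of HOX genes against their paralog group, 1 panel per cluster, with 1 point per library coloured by group; the dotted line marks 1 TPM. Over the 12 libraries the HOXA genes plotted and all HOXB genes except HOXB1 have means above the line. HOXC genes of groups 9 to 12 have such means below it, and no HOXD library reaches it.

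HOXB carried most of the HOX signal. The TPM of all HOX genes summed to between 647 and 917 per library. HOXB took between 60.0% and 67.1% of that sum, HOXA between 28.4% and 34.9%, HOXC between 3.81% and 5.96%, and HOXD at most 0.0271%. TPM is corrected for transcript length, so genes within a library can be ranked. HOXB9 (chr17:48621159-48626356) was the most abundant HOX gene, with a mean of 209 TPM, and it ranked 727 among all rows. HOXB7 (99.1 TPM), HOXB6 (73.1 TPM), HOXA10 (63.3 TPM) and HOXA13 (60.4 TPM) followed. This order over the 12 libraries differs by arm: HOXB6 averaged 58.1 TPM in GFP and 62.4 TPM with CTNNB1, below HOXA10 with 61.1 and 65.3 TPM, but 84.9 TPM in shNT1 and 87.0 TPM in shAPC. The ranges over the 12 libraries were 175 to 252 TPM for HOXB9 and 77.1 to 111 TPM for HOXB7, which do not overlap, whereas HOXA10 (59.9 to 67.9 TPM) and HOXA13 (53.6 to 66.4 TPM) do.

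Within HOXB the level rose along the cluster from HOXB2 to HOXB9 with dips at HOXB4 and HOXB8. Means over the 12 libraries were 1.01 TPM for HOXB2, 25.5 TPM for HOXB3, 10.8 TPM for HOXB4, 31.5 TPM for HOXB5, 73.1 TPM for HOXB6, 99.1 TPM for HOXB7, 39.7 TPM for HOXB8 and 209 TPM for HOXB9. HOXB13, a marker of hindgut and prostate that stands apart from the rest of the cluster, averaged 1.47 TPM. HOXA had no such order: HOXA10 and HOXA13, which pattern the posterior body and the hindgut and genital tract, were highest, followed by HOXA11 (34.6 TPM) and HOXA5 (26.4 TPM). HOXA6 averaged 15.9 TPM, HOXA3 14.9 TPM, HOXA7 9.47 TPM and HOXA2 7.09 TPM. HOXA9, between the abundant HOXA10 and HOXA7, averaged only 2.28 TPM, and HOXA4 averaged 2.97 TPM.

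HOXC was split into an expressed 3′ part, a nearly silent middle and a low 5′ end. HOXC4 averaged 18.4 TPM, HOXC6 10.3 TPM, HOXC8 3.82 TPM and HOXC5 2.57 TPM, and HOXC13 at the other end averaged 1.68 TPM. Between them HOXC9, HOXC10, HOXC11 and HOXC12 averaged 0.752, 0.0851, 0.422 and 0.194 TPM. The antisense RNA HOTAIR, transcribed from the minus strand at chr12:53962308-53974956 next to HOXC11, averaged more than any HOXC coding gene in 3 of the 4 groups and is described with them below. HOXD3, HOXD4, HOXD10 and HOXD11 were listed at 0 in every library. The highest HOXD mean was that of HOXD13, at 0.0409 TPM, with single libraries between 0 and 0.169 TPM.

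The coding genes overlap each other and antisense RNAs, and the labels do not state whether the library kept strand or how shared reads were assigned. In GENCODE v29, 62.5% of the exonic bases of HOXA7, 59.9% of HOXC5, 47.3% of HOXA4, 40.1% of HOXA6, 32.9% of HOXB6, 31.1% of HOXA11, 27.0% of HOXA9 and 26.3% of HOXA10 are shared with another gene, so the levels of these genes are uncertain. Among HOXD genes the shares are 80.5% for HOXD4, 74.1% for HOXD3, 58.1% for HOXD1, 21.4% for HOXD11 and 16.8% for HOXD10. The low or absent values of these HOXD genes are therefore uncertain too. HOXB7, HOXB8, HOXB9, HOXB13, HOXA2, HOXA5, HOXC8 and HOXC11 share none, nor do HOXD8, HOXD9, HOXD12 and HOXD13. The shares were 17.9% for HOXA3, 17.1% for HOXB4, 17.8% for HOXC4, 15.7% for HOXC6 and 13.2% for HOXB3. They were 7.10% for HOXC13 (with HOXC13-AS), 3.58% for HOXB5 (with HOXB-AS3) and 1.69% for HOXA13 (with HOTTIP).

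Control levels also lay apart between the arms. The summed HOXB level was 401 ± 11.7 TPM in GFP, 460 ± 14.3 TPM with CTNNB1, 542 ± 11.8 TPM in shNT1 and, for shAPC, 563 ± 33.8 TPM (SD, n = 3 each). HOXC sums were 31.6 ± 1.30, 42.1 ± 1.63, 35.2 ± 3.78 and 44.0 ± 3.68 TPM in the same order. HOXA sums lay closer together, at 230, 243, 239 and 250 TPM. The arms differ in vector, collection day and doxycycline, which cannot be told apart, so each perturbation was compared with its own control only.

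With CTNNB1, 12 of 25 HOX genes tested were called, and all 12 were higher (48%), where 23.5% of all 11624 genes tested were called, 16.3% higher and 7.16% lower. Of the calls over all genes 69.5% were higher, against 46.1% after median-ratio scaling. The 12 were HOXA3, HOXA13, HOXB3, HOXB4, HOXB5, HOXB7, HOXB8, HOXB9, HOXB13, HOXC4, HOXC6 and HOXC13. By cluster these were 2 of 11 HOXA genes, 7 of 9 HOXB genes and 3 of 5 HOXC genes, against 1, 2 and 3 after median-ratio scaling. The median log2 fold change was 0.20 over the HOX genes and 0.06 over all genes tested. In 14 of the 25 every CTNNB1 library lay above every GFP library (56%, against 30.2% of all genes) and in 0 every library lay below (13% of all genes). The test was limma on log2(TPM + 1) with Benjamini-Hochberg adjustment over all genes, called at an adjusted p under 0.05. Fold changes are on that scale, which understates the change of weakly expressed genes. Genes were tested at a mean of at least 1 TPM over the libraries of the arm. HOXB13, HOXC13 and HOXB2 (not called) had GFP means of 0.911, 0.925 and 0.869 TPM. They passed this filter only through their CTNNB1 libraries, and the counts above include them. After median-ratio scaling 6 HOX genes were called (HOXA13, HOXB5, HOXB8, HOXC4, HOXC6 and HOXC13), and the number was between 5 and 9 when each library was left out in turn: 5 without GFP replicate 1, 7 without GFP replicate 2, 7 without GFP replicate 3 and 6 without CTNNB1 replicate 2.

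**Figure D2:**
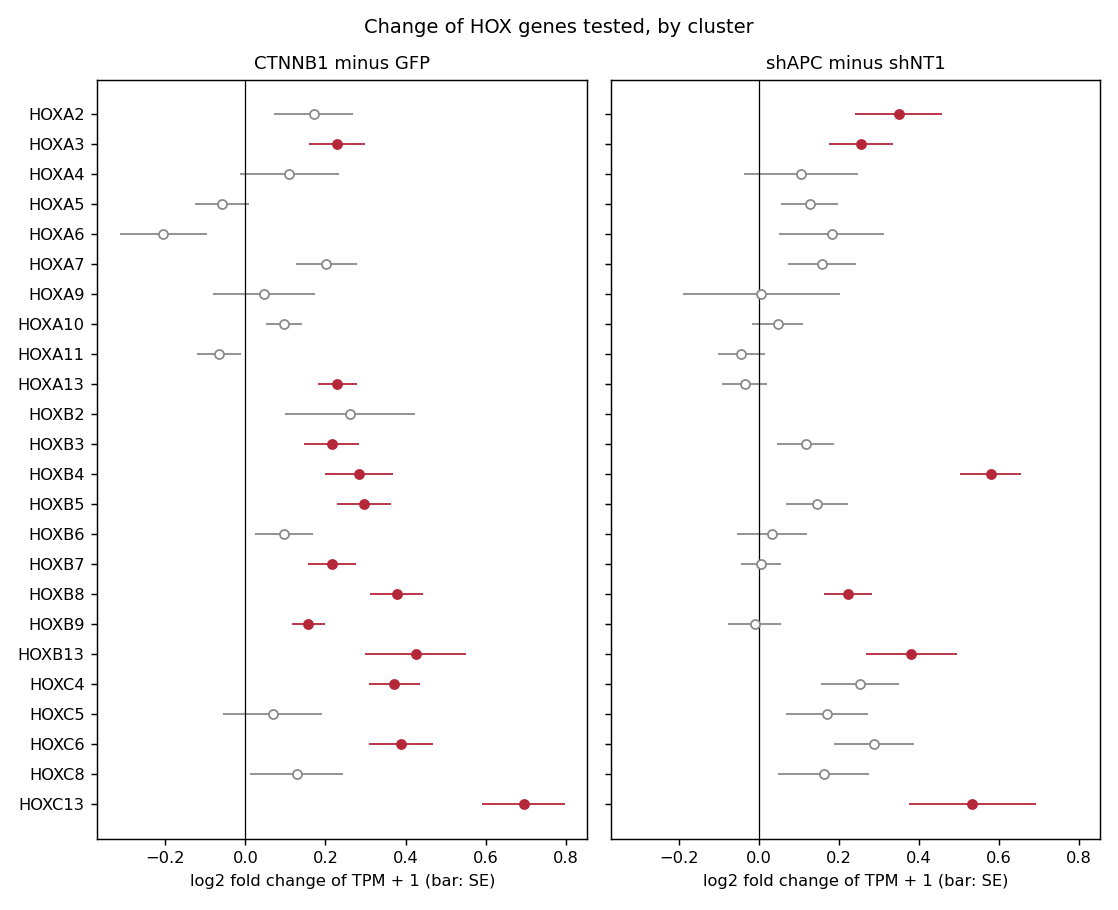
Log2 fold change of TPM + 1 with its standard error for HOX genes tested, in the CTNNB1 arm (left) and the shAPC arm (right), ordered by cluster; filled red points were called by limma and open points were not. All filled points lie above 0: 12 in the left panel, mainly in HOXB and HOXC, and 6 in the right, with HOXC13 the largest at left (0.70) and HOXB4 the largest at right (0.58).

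HOXC13, which controls hair and nail keratins in skin, had the largest change of the HOX genes tested in this arm. It passed the filter only through its CTNNB1 libraries. The GFP libraries had 0.949, 0.996 and 0.831 TPM and the CTNNB1 libraries 1.98, 2.10 and 2.27 TPM. The groups did not overlap, and the ratio of their means was 2.29. It changed by 0.70 on the log2 scale (SE 0.10, limma adjusted p = 0.0013). HOXC6, a central gene of the same cluster, had 8.55, 7.97 and 9.07 TPM against 10.5, 11.7 and 12.3 TPM. Every CTNNB1 library was again the higher, with a log2 fold change of 0.39 (SE 0.08, limma adjusted p = 0.0075). HOXC4 had 15.0, 14.8 and 14.1 TPM in GFP and 20.2, 18.1 and 19.5 TPM with CTNNB1. Its groups were separate too, and it changed by 0.37 (SE 0.06, limma adjusted p = 0.0031). HOXC5 (0.07) and HOXC8 (0.13), the other tested genes of the cluster, were not called.

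In HOXB the genes from HOXB3 to HOXB13 other than HOXB6 were called, and HOXB8 kept its call in every alternative tried and without each library. HOXB8 (chr17:48611377-48614939) had 24.2, 26.2 and 27.5 TPM in GFP and 35.0, 35.0 and 32.0 TPM with CTNNB1. The gap between the groups was larger than the spread within either, at a log2 change of 0.38 (SE 0.07, limma adjusted p = 0.0031). HOXB5, known for a role in the enteric nervous system, had 21.9, 23.6 and 25.4 TPM against 29.3, 30.4 and 27.9 TPM (log2 fold change 0.30, limma adjusted p = 0.012), and was not called without GFP replicate 1 or CTNNB1 replicate 2. HOXB13 had 0.640, 1.18 and 0.915 TPM in GFP and 1.55, 1.54 and 1.56 TPM with CTNNB1. Its GFP libraries were spread widely below 3 nearly equal CTNNB1 libraries, and it changed by 0.43 (SE 0.13, limma adjusted p = 0.037). It also passed the filter only through its CTNNB1 libraries. The HOXB13 call was lost after median-ratio scaling, after quantile normalization and without any 1 library other than GFP replicate 2.

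The most abundant HOXB genes changed by less. HOXB9 had 175, 182 and 180 TPM against 203, 198 and 198 TPM, a ratio of means of 1.12 (log2 fold change 0.16, limma adjusted p = 0.023). HOXB7 had 77.1, 87.4 and 86.7 TPM against 101, 93.5 and 98.0 TPM (0.22, limma adjusted p = 0.027). Both sets of libraries were separate, but both calls were lost after median-ratio scaling and without any 1 GFP library, and that of HOXB9 also without CTNNB1 replicate 2. HOXB3 had 20.1, 19.0 and 21.5 TPM against 25.2, 23.3 and 22.3 TPM (0.22, limma adjusted p = 0.048). HOXB4, known for expanding blood stem cells, had 7.98, 8.83 and 9.47 TPM against 9.94, 10.9 and 11.8 TPM (0.28, limma adjusted p = 0.038). The separation of HOXB3 and HOXB4 was narrow, and both calls were lost after median-ratio scaling. HOXB4 was not called without GFP replicate 1, GFP replicate 2, CTNNB1 replicate 2 or CTNNB1 replicate 3, nor HOXB3 without any 1 library other than CTNNB1 replicate 3. HOXB2 (0.26) and HOXB6 (0.10) were not called.

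In HOXA 2 genes were called. HOXA13 had 53.6, 55.8 and 54.5 TPM in GFP and 66.4, 64.0 and 62.4 TPM with CTNNB1. All CTNNB1 libraries were higher, by a log2 fold change of 0.23 (SE 0.05, limma adjusted p = 0.0089). HOXA3, which patterns the thymus and parathyroid in the embryo, had 12.7, 13.8 and 12.3 TPM against 16.2, 14.5 and 15.2 TPM (0.23, limma adjusted p = 0.041). This call was lost whichever of the 6 libraries was left out. The most abundant HOXA gene, HOXA10, had 60.9, 61.8 and 60.4 TPM against 66.1, 65.1 and 64.7 TPM: the libraries were separate, but the change of 0.10 was not called (limma adjusted p = 0.15). Only without a filter on low values was HOXA10 called. HOXA2 (0.17), HOXA4 (0.11), HOXA7 (0.20) and HOXA9 (0.05) were not called either. Neither were HOXA5 (-0.06), HOXA6 (-0.20) and HOXA11 (-0.07), which had negative values.

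With shAPC, 6 of 24 HOX genes tested were called, all higher (25%), where 22.1% of all 11834 genes tested were called, 7.24% higher and 14.9% lower. Over all genes 32.8% of the calls were higher, against 44.3% after median-ratio scaling. The 6 were HOXA2, HOXA3, HOXB4, HOXB8, HOXB13 and HOXC13. The median log2 fold change was 0.15 over the HOX genes and -0.05 over all genes tested. In 9 of the 24 every shAPC library lay above every shNT1 library (37.5%, against 14.5% of all genes), and in 0 every library lay below (26.4% of all genes). The number of calls was 1 without a filter on low values and 7 after median-ratio scaling, where 6 were called with CTNNB1. It was between 1 and 4 when each library was left out: 2 without shNT1 replicate 1, 2 without shNT1 replicate 2, 4 without shNT1 replicate 3, 1 without shAPC replicate 1, 2 without shAPC replicate 2 and 3 without shAPC replicate 3.

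HOXB4 (chr17:48575513-48580111) had the largest change of the HOX genes tested here. The shNT1 libraries had 9.17, 8.64 and 9.87 TPM and the shAPC libraries 14.4, 13.3 and 15.1 TPM. The groups were far apart, with a ratio of means of 1.55 and a log2 fold change of 0.58 (SE 0.08, limma adjusted p = 0.00068). It was called in every alternative tried and without each library in turn. HOXB8 had 46.7, 44.8 and 44.9 TPM against 57.2, 50.8 and 51.8 TPM (0.22, SE 0.06, limma adjusted p = 0.026). HOXB13 had 1.54, 1.29 and 1.24 TPM against 2.17, 2.06 and 1.96 TPM (0.38, limma adjusted p = 0.037). The libraries of both genes were separate, but HOXB13 was not called whichever library was left out (log2 fold change 0.35 to 0.44), and HOXB8 was not called without shNT1 replicate 1, shNT1 replicate 2, shAPC replicate 1 or shAPC replicate 3. The largest adjusted p of HOXB8 among these was 0.072.

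HOXC13 again rose, from 1.69, 1.31 and 0.970 TPM to 2.80, 2.52 and 1.77 TPM. The lowest shAPC library was just above the highest shNT1 library, for a log2 change of 0.53 (SE 0.16, limma adjusted p = 0.037). HOXA2, a gene of the hindbrain and branchial arches, had 5.32, 7.05 and 7.27 TPM against 9.01, 7.91 and 8.76 TPM (0.35, limma adjusted p = 0.044). HOXA3 had 13.7, 14.2 and 14.9 TPM against 19.2, 16.9 and 15.7 TPM (0.25, limma adjusted p = 0.046). For these 3 genes the call was lost without any 1 of 4 libraries: shNT1 replicate 2, shNT1 replicate 3, shAPC replicate 1 or shAPC replicate 2 for HOXC13, shNT1 replicate 1 or any shAPC library for HOXA2, and shNT1 replicate 1, shNT1 replicate 2, shAPC replicate 1 or shAPC replicate 2 for HOXA3. The largest adjusted p was 0.13 for each of them.

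The other HOX genes tested in this arm were not called. The nearest were HOXC6, with 9.82, 9.91 and 8.45 TPM against 13.6, 10.8 and 10.7 TPM (0.29, limma adjusted p = 0.065), and HOXC4, with 19.3, 19.4 and 15.5 TPM against 23.2, 19.4 and 22.5 TPM (0.25, limma adjusted p = 0.089). The HOXC6 libraries were separate and those of HOXC4 overlapped. The abundant genes stayed close to 0: HOXB9 (-0.01), HOXB7 (0.01), HOXB6 (0.03), HOXA10 (0.05), HOXA11 (-0.04) and HOXA13 (-0.03). Values between 0.10 and 0.18 were found for HOXA4, HOXA5, HOXA6, HOXA7, HOXB3, HOXB5, HOXC5 and HOXC8, while HOXA9 was at 0.01. HOXB2 was below the filter in this arm.

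**Figure D3:**
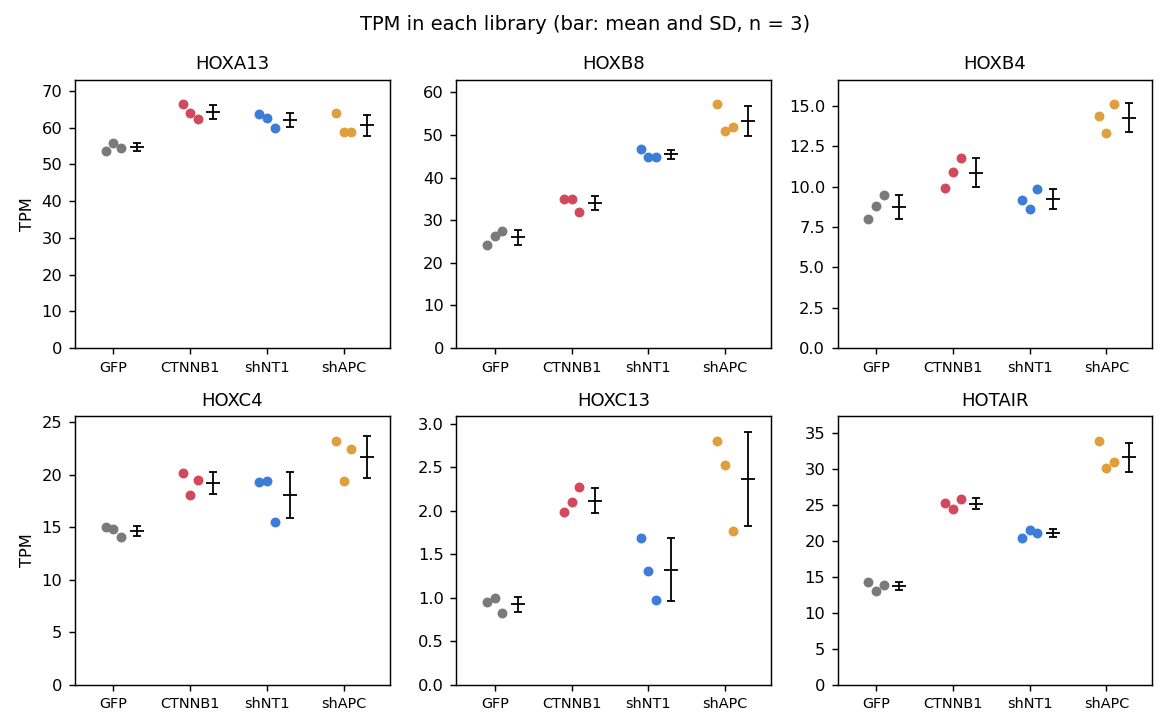
TPM of 5 HOX genes and HOTAIR in each library by group, with the group mean and SD (n = 3) beside the points; the vertical axes start at 0. HOXC13 and HOTAIR are higher in both perturbed groups than in their controls, HOXB4 rises most in shAPC, HOXA13 is higher with CTNNB1 than with GFP, and HOXB8 in shNT1 already lies above HOXB8 in the CTNNB1 group.

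Calls in both arms were made for 5 genes, HOXA3, HOXB4, HOXB8, HOXB13 and HOXC13, which are 41.7% of the 12 called with CTNNB1 and 83.3% of the 6 called with shAPC. Of these, HOXB13 and HOXC13 passed the filter of the CTNNB1 arm only through its CTNNB1 libraries. Over all genes, those called higher in both arms were 24.8% and 55.0% of the genes called higher in each. The arms share no control library. Whether a gene changed by different amounts was tested on the difference between both effects (CTNNB1 arm minus shAPC arm), with the 12 libraries fitted together. Of 25 HOX genes 1 was called, HOXA13 (difference 0.26, SE 0.07, limma adjusted p = 0.023), where 16.1% of all 11741 genes were called, 13.3% with a positive and 2.76% with a negative difference (54.7% of calls positive after median-ratio scaling and 82.8% before). In the shAPC arm HOXA13 had 63.6, 62.7 and 59.9 TPM in shNT1 and 64.1, 58.8 and 58.9 TPM in shAPC, which overlap, and GFP was the lowest of the 4 groups. The difference shrank to 0.15 after median-ratio scaling (adjusted p = 0.12), a scaling under which the median over all genes went from 0.11 to 0.004. HOXB4 (-0.40, adjusted p = 0.043) and HOXA5 were called in its place there, both with a larger change in the shAPC arm. The HOXA13 call was also lost without GFP replicate 1, shNT1 replicate 1, shAPC replicate 2 or shAPC replicate 3. For HOXB8 (0.16), HOXB13 (0.04), HOXC13 (0.16) and HOXA3 (-0.03) the difference between arms was not called.

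The weakly expressed posterior HOXC genes were below the filter and are described by their values. HOXC11 had 0.229, 0.150 and 0.261 TPM in GFP and 0.830, 0.877 and 0.538 TPM with CTNNB1. In the hairpin arm it had 0.208, 0.246 and 0.0975 TPM in shNT1 and 0.684, 0.468 and 0.473 TPM in shAPC. The groups did not overlap in either arm, with ratios of means of 3.51 and 2.94. Without the filter its limma adjusted p was 0.054 and 0.089. The authors' deposited table gives HOXC11 a log2 fold change of 1.64 (adjusted p = 0.018) with CTNNB1 and 1.56 (adjusted p = 0.045) with shAPC. HOXC9 averaged 0.310 TPM in GFP and 0.854 TPM with CTNNB1 without overlap, and 0.665 and 1.18 TPM in the hairpin arm with overlap. HOXC10 and HOXC12 were at 0 in some libraries of both arms and at most 0.483 TPM in any.

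HOTAIR, an antisense RNA known for binding chromatin-modifying complexes, lies in this stretch and had the largest change of the non-coding RNAs of the clusters that were tested. It had 14.3, 13.1 and 13.9 TPM in GFP and 25.3, 24.4 and 25.8 TPM with CTNNB1. In the hairpin arm it had 20.5, 21.5 and 21.2 TPM in shNT1 and 33.9, 30.1 and 31.0 TPM in shAPC. Neither pair of groups overlapped, and the spread within a group was small beside the gap. The log2 fold changes were 0.83 (SE 0.06, limma adjusted p = 2.5e-05) and 0.57 (SE 0.06, limma adjusted p = 0.00024), and both calls held in every alternative and without each library. HOTAIR and HOXC11 share no exonic bases in GENCODE v29.

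**Figure D4:**
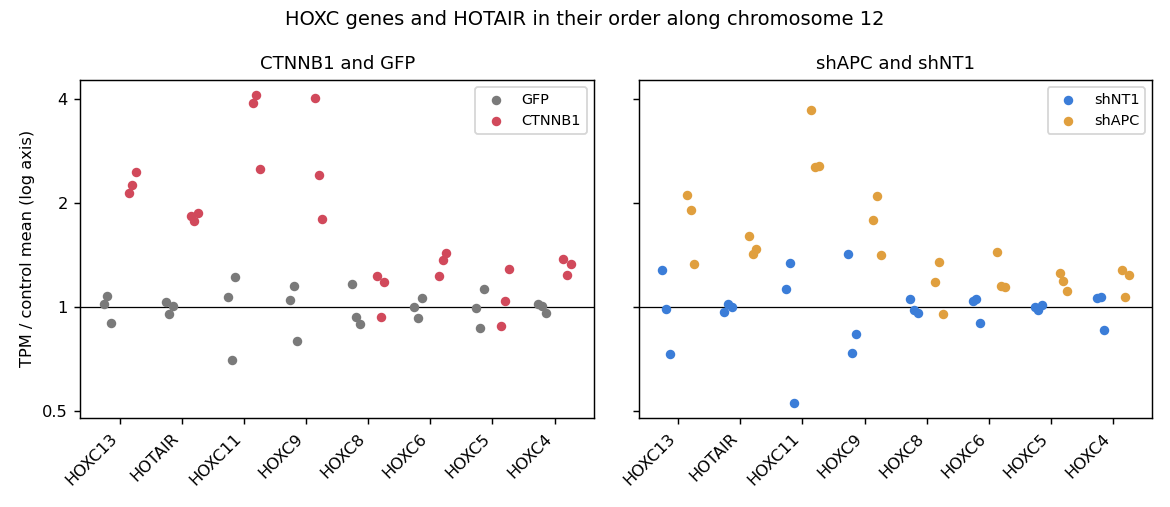
TPM of each library divided by the mean of its control group (log axis) for HOXC genes and HOTAIR in their order along chromosome 12, with the CTNNB1 arm at left and the shAPC arm at right; HOXC10 and HOXC12 are left out because some libraries are at 0. HOXC13, HOTAIR and HOXC11 lie above their controls without overlap in both panels, and HOXC9 does so at left but overlaps its control at right. Ratios are smaller from HOXC8 to HOXC4.

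Of the 18 non-coding or interspersed genes of the clusters that the table lists, 8 were tested. With CTNNB1 only HOTAIR was called. With shAPC HOTAIR and HOTAIRM1 (0.24, limma adjusted p = 0.038), which lies at the anterior end of HOXA, were called higher. HOTTIP, at the posterior end of HOXA next to HOXA13, was called lower (-0.34, limma adjusted p = 0.029). HOTAIRM1 and HOTTIP lost these calls with other settings. Among 13 genes flanking the clusters 10 were tested. CALCOCO1 and CBX5, beside HOXC, were called higher in both arms (CALCOCO1 0.57 and 0.66, CBX5 0.61 and 0.31). SKAP1, beside HOXB, was called higher with CTNNB1 (0.72), as was HNRNPA1 (0.21), and LNPK, beside HOXD, was called lower with shAPC (-0.26).

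The authors' deposited table for CTNNB1 calls fewer HOX genes: 5 were higher at an adjusted p under 0.05 (HOXA13, HOXB8, HOXC4, HOXC11 and HOXC13; 4.82% of its rows were called higher) and HOXA11 was lower (-0.14; 4.60% of rows). In the authors' deposited table for shAPC 6 were higher (HOXA3, HOXB4, HOXB8, HOXB13, HOXC5 and HOXC11; 4.11% of its rows) and 0 lower (4.90% of rows). In each arm 4 of these were also called here. HOXC13 was not called in the authors' deposited table for shAPC (0.88, adjusted p = 0.11).

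Upstream sequence was examined for the genes that a RefSeq promoter table (GRCh38.p14) holds, since the perturbations act on TCF/LEF factors and CDX factors regulate HOX genes. It matched 20 of the 39 HOX genes, with 27 windows of 250 bases before a transcript start. Both strands were searched for the TCF/LEF strings (CTTTG followed by AA, AT, TA or TT), the CDX strings (TTTAT followed by GG, TA or TG) and the PBX-HOX string TGATTNAT. A TCF/LEF string that ends in TGAT can overlap a PBX-HOX string. TCF/LEF strings were in 3 of the 27 windows (4199 of all 35116 windows), CDX strings in 5 (9.15% of all) and the PBX-HOX string in 2 (2.48%). HOXC4 and HOXC5 share 1 window, and HOXA3 has several. The windows of 3 called genes are shown 5′ to 3′ on the gene's strand: HOXC4, called with CTNNB1, at chr12:54016638-54016887 (plus strand), HOXA2, called with shAPC, at chr7:27102684-27102933 (minus strand), and HOXA13, the gene called for its difference between arms, at chr7:27200092-27200341 (minus strand). Capitals mark matches on either strand.
HOXC4: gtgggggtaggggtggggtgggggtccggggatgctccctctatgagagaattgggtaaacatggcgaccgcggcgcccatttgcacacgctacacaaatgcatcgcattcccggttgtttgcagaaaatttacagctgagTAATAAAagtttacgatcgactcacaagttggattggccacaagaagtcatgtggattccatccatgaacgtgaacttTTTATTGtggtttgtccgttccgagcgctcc
HOXA2: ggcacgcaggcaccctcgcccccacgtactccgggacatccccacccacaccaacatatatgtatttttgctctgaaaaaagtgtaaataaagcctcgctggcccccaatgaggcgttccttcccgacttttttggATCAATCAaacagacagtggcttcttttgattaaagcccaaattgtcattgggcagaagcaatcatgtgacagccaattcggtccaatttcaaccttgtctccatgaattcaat
HOXA13: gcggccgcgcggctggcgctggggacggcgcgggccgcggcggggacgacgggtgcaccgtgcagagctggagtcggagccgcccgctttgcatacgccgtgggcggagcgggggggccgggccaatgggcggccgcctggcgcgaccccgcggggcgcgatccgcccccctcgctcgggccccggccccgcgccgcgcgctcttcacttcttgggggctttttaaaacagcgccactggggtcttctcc
The HOXC4 window holds CDX strings 109 and 31 bases before the RefSeq start, the HOXA2 window a PBX-HOX string 114 bases before it, and the HOXA13 window, of which 78% is G or C, none. In GENCODE v29 HOXA2, on the minus strand, begins at chr7:27102811, so its PBX-HOX string lies inside the gene as annotated there. All these are matches of letters in short windows, and binding was not measured.

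The TALE cofactors PBX3 and MEIS2 moved in opposite directions in the arms. PBX3, a DNA-binding partner of HOX proteins, averaged 11.6 TPM in GFP and 14.2 TPM with CTNNB1 (0.27, limma adjusted p = 0.021), but 14.7 TPM in shNT1 and 11.7 TPM in shAPC (-0.30, limma adjusted p = 0.013). Its call with CTNNB1 was lost after median-ratio scaling and without any 1 GFP library or CTNNB1 replicate 2, and that with shAPC without shAPC replicate 2. MEIS2, a cofactor that pairs with PBX and HOX proteins, averaged 21.6 and 26.9 TPM (0.30, limma adjusted p = 0.011) and 28.0 and 24.0 TPM (-0.22, limma adjusted p = 0.027). MEIS2 was called in 5 of the 6 fits with a library left out in the CTNNB1 arm and in 2 of 6 in the shAPC arm. The difference between arms was called for both genes (PBX3 0.57, MEIS2 0.52), in every alternative tried and without each of the 12 libraries. PBX2 was called higher with CTNNB1 (0.37, limma adjusted p = 0.011) and PKNOX1 lower with shAPC (-0.19, limma adjusted p = 0.046), a call that was lost after median-ratio scaling and whichever library was left out. With CTNNB1 PKNOX1 was not called here, but every CTNNB1 library (15.0 to 15.6 TPM) lay below every GFP library (16.8 to 17.6 TPM). The authors' deposited table calls PKNOX1 lower with CTNNB1 (-0.22, limma adjusted p = 0.014). PBX3 is not called with CTNNB1 there (0.22, limma adjusted p = 0.069). It is called lower with shAPC (-0.29, limma adjusted p = 0.010), and MEIS2 is called in both arms in the directions found here. MEIS1 was not called in either arm.

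**Figure D5:**
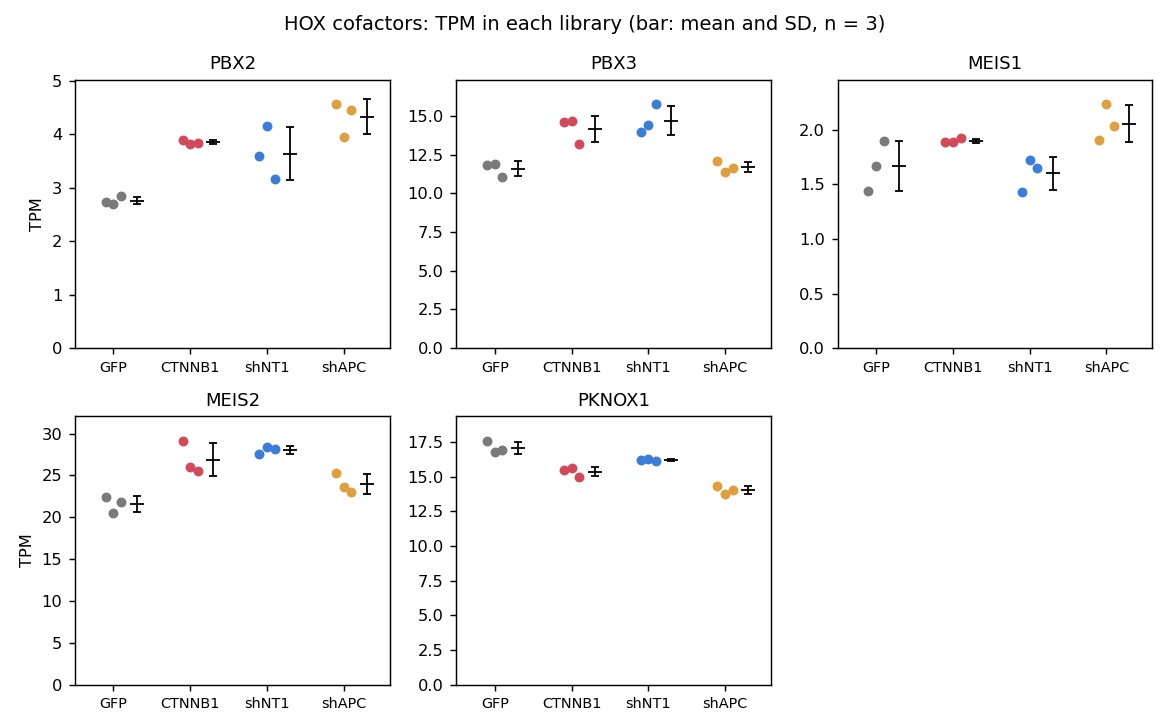
TPM of 5 TALE cofactors in each library by group, with the group mean and SD (n = 3); the vertical axes start at 0. PBX3 and MEIS2 rise with CTNNB1 and fall with shAPC.

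Of 29 Polycomb and Trithorax genes, which keep HOX genes off or on, 27 were tested. With CTNNB1 5 were called higher (16.3% of all genes were) and 0 lower: EZH2 (0.20), the Polycomb methyltransferase, and JARID2 (0.23), PCGF2 (0.29), CBX6 (0.41) and ASH2L (0.24). After median-ratio scaling CBX6 alone was still called. With shAPC CBX8 was called higher (0.32), and PHC2 (-0.32) and PSIP1 (-0.71) lower, where 7.24% of all genes were called higher and 14.9% lower. PHC2 and PSIP1 kept these calls in every alternative tried and without each library. CBX8 kept its call in 1 of 6 fits with a library left out, and lost it with the replicate block. Of 18 retinoic acid pathway genes 9 were tested. CRABP2, which carries retinoic acid to its receptors, was called higher in both arms (0.50 and 0.52). ALDH1A3, which makes retinoic acid, was called higher with CTNNB1 (1.16) and lower with shAPC (-0.24), ALDH1A1 was called higher with shAPC (0.44), and DHRS3 was called lower in both arms (-0.26 and -0.24). With shAPC the DHRS3 call was lost after median-ratio scaling and in 5 of 6 fits with a library left out, and that of ALDH1A3 in 5 of 6 such fits. RXRA was called lower with shAPC (-0.23), and in 2 of 6 fits with a library left out. Of 6 ParaHox genes, relatives of HOX genes in a separate cluster, only PDX1 passed the filter, at -0.002 with CTNNB1 and -0.39 with shAPC (limma adjusted p = 0.023). The PDX1 call with shAPC was kept in 2 of 6 fits with a library left out. In these bulk libraries a higher share of expressing cells and more RNA per cell cannot be told apart.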

How the data were processed

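RNA-seq libraries of 12 HT-29 samples in 4 groups of 3 were analysed. The authors deposited TPM per gene, each column summing to 1e+06. Per the submitters' processing notes, STAR 2.7.3a, limma and the hg38 build were used; the quantification tool is not given in the sources used here. The authors' deposited limma tables hold log2 fold changes and mean log2 expression, p-values and adjusted p-values. Their deposited moderated t and log-odds score, per the file headers, were not used. The depth of the libraries is unknown.

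Each arm was fitted here with limma 3.58.1 (R 4.3.3) on log2(TPM + 1) for genes with a mean of at least 1 TPM over its 6 libraries, with moderated variances and a mean-variance trend. The difference between arms came from one fit of 12 libraries. The fits were tested on simulated data whose planted changes were larger than most of the HOX changes called here. Changes as small as those were not simulated. Gene positions came from GENCODE v29. Named genes were the expressed or tested HOX genes, called members of the other lists, and perturbation checks, apart from some that are not reported here; HOXC9 to HOXC12 were singled out after their values were seen. The HOX genes and the lists were chosen with earlier results of these data known. Alternatives were another pseudocount, filter, scaling, variance model or threshold, a replicate block, one fit of all groups, and leaving out each library.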

Additional observations from a re-analysis of the deposited data

Results flagged for a closer look

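These genes changed by different amounts in the arms, by limma's test of that difference. Differences are CTNNB1 effect minus shAPC effect on the log2 scale. Among HOX genes this was HOXA13 (0.265). Among cofactors it was PBX3 (0.573) and MEIS2 (0.518). In the clusters and beside them it was HOTTIP (0.483), HOTAIR (0.264), HOTAIRM1 (-0.386), SKAP1 (0.718) and CBX5 (0.302). For HOTAIR the difference was called in 2 of 8 alternatives and in 1 of 12 fits with a library left out. Among Polycomb and Trithorax genes it was EZH2 (0.326), SUZ12 (0.275), PHF19 (0.335), PHC2 (0.317), ASH2L (0.252), WDR5 (0.318) and PSIP1 (0.879). In the retinoic acid pathway it was ALDH1A1 (-0.604) and ALDH1A3 (1.40). After median-ratio scaling the difference was not called for HOXA13, HOTAIR, CBX5, EZH2, SUZ12, PHF19, ASH2L and WDR5, with adjusted p between 0.076 and 0.19. It was still called for PBX3, MEIS2, HOTTIP, HOTAIRM1, SKAP1, PHC2, PSIP1, ALDH1A1 and ALDH1A3.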

How the results depend on the processing

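The number of HOX genes called with CTNNB1 (12) was 6 without a filter, 6 after median-ratio scaling, 6 without a filter and with a pseudocount of 0.1 together (a joint setting chosen after seeing the data), 5 at an adjusted p under 0.01 and 5 to 9 with a library left out; over all genes, 2730 calls became 1366 without a filter, 1294 with the joint setting, 1253 at the stricter threshold and 1499 to 3190 with a library left out. With shAPC 6 HOX genes became 1 without a filter, 1 with the joint setting, 1 at the stricter threshold, 3 without a variance trend and 1 to 4 with a library left out; 2615 genes became 998 without a filter, 887 with the joint setting, 1151 at the stricter threshold and 1484 to 2252 with a library left out. For the difference between arms 1 HOX gene became 2 after median-ratio scaling, 2 after quantile normalization, 0 at the stricter threshold and 0 to 2 with a library left out; 1885 genes became 987 without a filter, 957 with the joint setting, 628 at the stricter threshold and 995 to 2143 with a library left out. The 6 HOX genes called with CTNNB1 without a filter, with either pseudocount, included HOXA10, which was not among the 12. The 25 expressed HOX genes stayed within 1.5 times in the alternatives tried.

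Same-numbered libraries correlated at 0.209, 0.076 and 0.121 in the CTNNB1 arm and at -0.138, 0.002 and -0.21 in the shAPC arm, so the numbers were not taken as a pairing, and not every library correlated best with its own number. With the replicate block, 2 HOX genes were called with shAPC in place of 6.

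HOX genes whose sign turned were never called in the comparison concerned, and the cause was not tested. With CTNNB1, quantile normalization gave HOXA4 -0.0052, HOXA9 -0.084 and HOXC5 -0.059, and median-ratio scaling gave HOXA9 -0.0027. With shAPC, median-ratio scaling gave HOXA13 0.0074, HOXB9 0.032 and CTNNB1 0.039, and quantile normalization gave HOXA9 -0.048, HOXA11 0.029, HOXA13 0.039, HOXB9 0.061 and CTNNB1 0.078. With a library left out, the CTNNB1 arm gave HOXA9 -0.062 to 0.13 and HOXC5 -0.039 to 0.16. The shAPC arm gave HOXA4 -0.0057 to 0.25, HOXA9 -0.19 to 0.23, HOXB6 -0.046 to 0.12, HOXB7 -0.014 to 0.036, HOXB9 -0.081 to 0.046 and CTNNB1 -0.029 to 0.043.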
